A study of Mus musculus with 23 samples.

Results

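The genes described here mark the subsets of mature and newly formed B cells in the mouse spleen: Fcer2a, Cr2, Cd1d1, Cd9, Cd93, Dtx1, Notch2, Cd38, Cd55 and Cd24a. The 10 genes were taken by name as follicular, marginal zone and transitional B cell genes, and all 10 were found by the RefSeq accession of their probes. They stand among 18217 genes with a probe, of which 13743, all 10 included, were bright enough to be tested. The study measured RNA on Agilent one-colour mouse arrays and asked how lymphomas of mice without the DNA damage kinase Atm and without T cells compare with spleens free of tumour. It holds 22 samples in 3 groups, all of strain C57BL/6 x 129 and all labelled Cd3e knockout, a deletion of a gene that T cells need to form. The first group is 9 B cell lymphoma lines (ATMKO.CD3eKO), each set up from spleen cells of a mouse with a tumour and kept as a suspension culture in RPMI1640, with no sex given. The second group is 6 spleens without a tumour from Atm knockout mice (ATMKO.CD3eKO), all female. The third group is 7 spleens from Atm wild-type mice (ATMWT.CD3eKO), of which 4 were male and 3 female. No age or treatment is given for the 3 groups here. Nothing states whether spleens came from separate litters, so p-values measure the spread between these samples.

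B cells that leave the bone marrow reach the spleen as transitional cells, which carry CD93 and much CD24, and then become follicular or marginal zone B cells. Follicular cells carry CD23, the low affinity receptor for IgE that Fcer2a encodes. Marginal zone cells carry high levels of CD21, the complement receptor that Cr2 encodes, of CD1d, which presents lipids to natural killer T cells, and of CD9, a tetraspanin. Notch2 is the receptor that the marginal zone fate needs, and Dtx1 is a known target of Notch signals in these cells. CD38 is an ectoenzyme that consumes NAD, CD55 is an anchored protein that shields cells from complement, and CD24 is a small anchored sialoprotein that falls as B cells mature.

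A level is the log2 of the scanner's processed signal minus the 75th percentile of the same array, so 0 is that percentile and a difference of 1 is a doubling. Before scaling, that percentile lay between 492 and 790 on the 10 line arrays, against 669 to 898 for knockout and 570 to 830 for wild-type spleens. The scanner called 54.9% to 62.3% of spots well above background on the arrays of the lines, 62.6% to 67.7% on those of Atm knockout and 61.7% to 66.9% on those of Atm wild-type spleens. Atm lay at -4.38 to -2.77 in the lines, at -2.69 to -2.07 in Atm knockout spleens and at -0.66 to 0.00 in wild-type spleens, with no overlap between either Atm knockout group and the wild type. The Cd3e probe, whose place relative to the deletion is not given, was well above background in all 22 samples, at -3.30 to -1.22 in the lines, against -4.65 to -3.86 in knockout and -4.63 to -3.96 in wild-type spleens, and was higher in the lines than in knockout spleens by 1.87 (limma adjusted p = 5.02e-07). Line 8 was hybridised to 2 arrays, of which 1 is titled as a repeat, and their mean was used as 1 sample. These 2 arrays differed by a median of 0.29 over 10262 genes, and 3 of 44 pairs of arrays of different lines lay closer together, the closest being lines 4 and 5 at 0.20. All 18 B cell markers checked, among them Cd79a and Pax5, were well above background in every line and every spleen.

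Of the 10 genes, 6 were lower and 2 were higher in the lymphoma lines than in Atm knockout spleens. The genes that fell were Fcer2a, Cd93, Cr2, Cd1d1, Cd55 and Notch2, and those that rose were Cd9 and Cd24a (limma, adjusted p under 0.05 over 13743 genes). Among all tested genes 28.9% were lower and 41.5% higher in this comparison, 70.4% in all. Dtx1 and Cd38 did not pass. Against wild-type spleens the counts were again 6 lower and 2 higher, beside 31% and 40.2% of all genes (71.2% in all), and both comparisons use the same lines. Between knockout and wild-type spleens none of the 10 passed, beside 3.82% of all genes.

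The median of the 10 log2 differences was -3.60 for lines minus knockout spleens and -3.58 for lines minus wild-type spleens, against 0.18 and 0.13 over all tested genes. Against knockout spleens 5 of the 10 were lower by at least 10-fold, a size reached by 8.84% of all genes, and against wild-type spleens also 5, beside 8.75%. In either comparison 6 of the 10 were lower with no overlap between the groups, where 16.8% of all genes were so against knockout spleens and 18% against wild-type spleens. Cd9 alone among the 10 was higher with no overlap, beside 24.1% of all genes against knockout spleens and 23.9% against wild-type spleens. The filter kept a gene with a probe well above background in at least 6 of 22 samples. Fcer2a and Cd93 passed it through the spleens, with 1 and 3 lines above background, so a large difference was built into their passing.

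**Figure D1:**
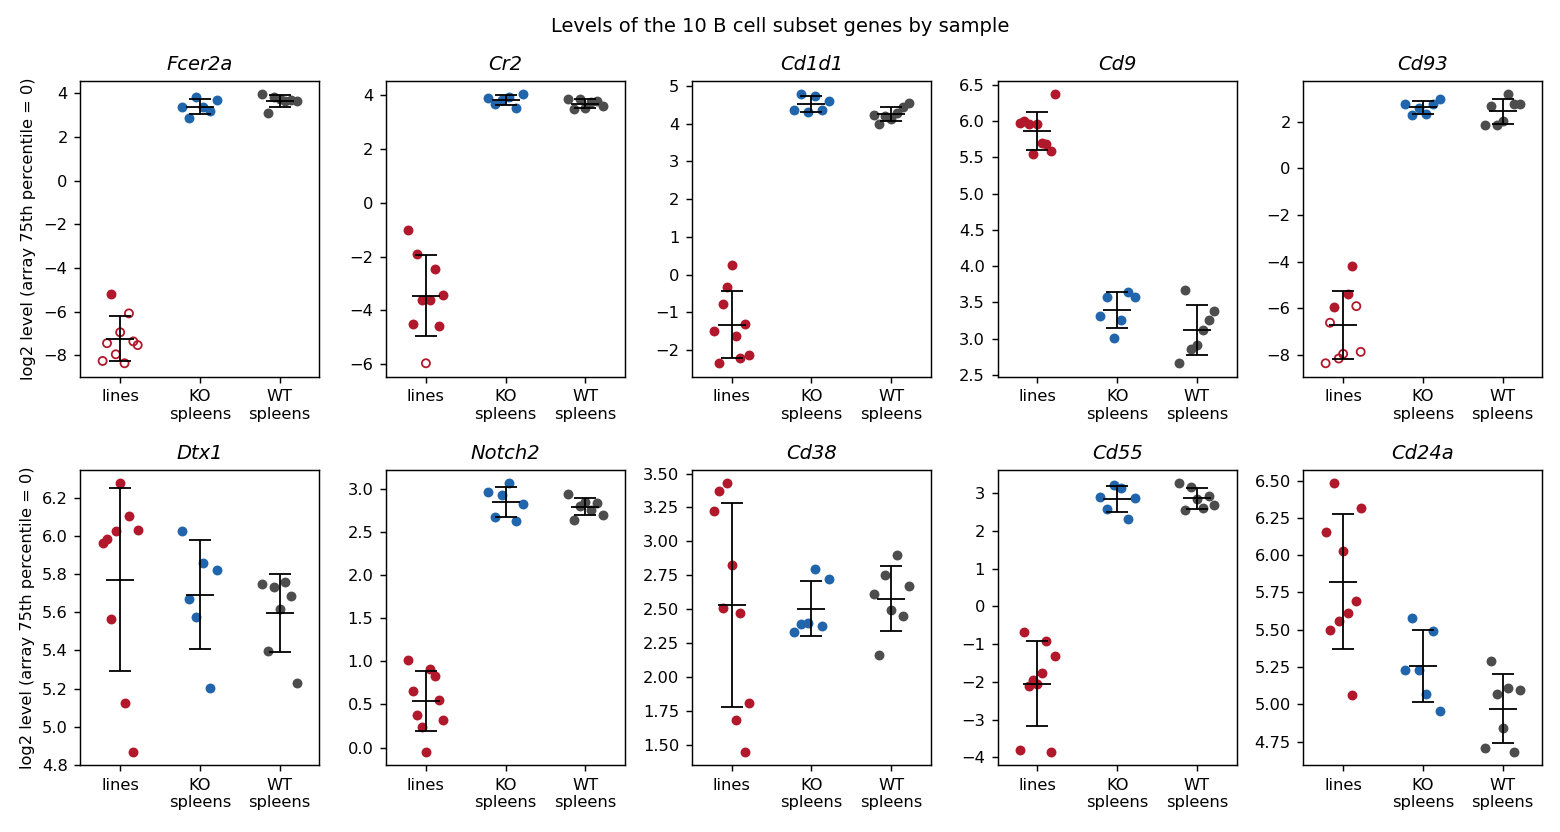
Log2 level of each of the 10 genes (0 is the 75th percentile of the array) in 9 lymphoma lines (red), 6 Atm knockout spleens (blue) and 7 Atm wild-type spleens (grey), with open points for samples not well above background and bars for the mean ± SD. Fcer2a, Cr2, Cd1d1, Cd93, Notch2 and Cd55 lie lower in all 9 lines than in all 13 spleens, Cd9 lies higher, and the y axes differ between panels.

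Below are 4 stretches of promoter sequence, shown because 3 of them hold the core letters bound by RBPJ, the DNA-binding partner of Notch receptors, and 1 holds letters bound by STAT6, which acts on Fcer2a when B cells meet IL-4. They are the 250 bases before a RefSeq transcription start (GRCm38.p6), read 5′ to 3′ on the strand of the gene, with the match in capitals. The stretches are Cr2 at chr1:195176720-195176969 (minus strand), Fcer2a at chr8:3690862-3691111 (minus strand, 1 of 3 listed starts), Cd9 at chr6:125494761-125495010 (minus strand) and Cd38 at chr5:43868559-43868808 (plus strand).
Cr2: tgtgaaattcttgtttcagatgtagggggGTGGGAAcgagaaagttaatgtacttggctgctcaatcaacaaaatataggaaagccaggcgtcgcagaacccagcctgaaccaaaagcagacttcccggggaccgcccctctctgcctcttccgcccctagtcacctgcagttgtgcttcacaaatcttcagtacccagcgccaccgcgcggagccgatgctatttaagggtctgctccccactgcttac
Fcer2a: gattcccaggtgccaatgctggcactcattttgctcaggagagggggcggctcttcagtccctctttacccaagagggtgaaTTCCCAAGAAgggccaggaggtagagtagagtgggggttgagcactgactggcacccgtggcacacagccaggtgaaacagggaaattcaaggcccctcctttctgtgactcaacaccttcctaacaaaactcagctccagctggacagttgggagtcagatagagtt
Cd9: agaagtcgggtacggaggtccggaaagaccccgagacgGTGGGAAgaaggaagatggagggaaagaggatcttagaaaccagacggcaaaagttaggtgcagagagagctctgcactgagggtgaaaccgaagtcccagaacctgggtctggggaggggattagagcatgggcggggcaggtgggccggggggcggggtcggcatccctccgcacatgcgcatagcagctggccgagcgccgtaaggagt
Cd38: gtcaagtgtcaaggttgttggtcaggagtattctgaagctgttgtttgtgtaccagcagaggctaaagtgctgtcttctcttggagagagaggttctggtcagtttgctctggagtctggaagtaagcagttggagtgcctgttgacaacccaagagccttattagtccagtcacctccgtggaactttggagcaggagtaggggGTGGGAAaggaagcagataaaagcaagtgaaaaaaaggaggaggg

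The table of promoters held 9 windows of 300 bases, 250 before and 50 after a start, for 7 of the 10 genes. The RBPJ letters GTGGGAA, searched on both strands, were in windows of Cr2, Cd9 and Cd38, where they began 221, 212 and 45 bases before the start. In all, 6.38% of 32851 mouse promoter windows held them. These 3 genes differ in direction in the lines, since Cr2 was lower, Cd9 was higher and Cd38 was not called. The STAT6 letters, TTC and GAA with any 4 bases between them, were in 1 window of Fcer2a, 168 bases before its start, and in 6.95% of all windows. The E protein letters CAGCTG were in windows of Fcer2a, Cd9 and Cd55 and in 16.3% of all windows. A match is a description of letters and not of a bound site.

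Fcer2a, the marker of follicular B cells, was near background in the lines and bright in every spleen. Its level ran from -8.37 to -5.19 in the lines, with a median of -7.45, and only line 3 was well above background. Knockout spleens lay at 2.87 to 3.81 (median 3.37) and wild-type spleens at 3.07 to 3.94 (median 3.67). All 9 lines lay below all 13 spleens. The log2 difference fitted on the processed signal was -10.63 from knockout spleens (limma adjusted p = 1.49e-16) and -10.89 from wild-type spleens (limma adjusted p = 3.56e-17). With each dim array raised to its lowest level well above background, Fcer2a was at least 682-fold lower in the lines than in knockout spleens. Against wild-type spleens this bound was 820-fold, and neither bound was tested. With normexp background correction the log2 difference from knockout spleens was -6.19, against -10.63 as fitted on the processed signal.

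Cr2 stayed measurable in most lines and varied the most among them. The levels in lines 1 to 9 were -1.03, -4.52, -1.92, -3.61, -5.96, -3.61, -2.46, -4.59 and -3.41, and line 5 was not well above background. Knockout spleens lay at 3.52 to 4.01 and wild-type spleens at 3.47 to 3.85. Line 1, the highest, was still below every spleen, and its signal was at least 30.5 times that of line 5. The fitted log2 difference was -7.26 ± 0.49 (SE) from knockout spleens (limma adjusted p = 2.21e-11) and -7.14 ± 0.47 from wild-type spleens (limma adjusted p = 1.15e-11). By a second, dimmer probe, well above background in 3 of 9 lines, Cr2 was at least 17.1-fold and 16.6-fold lower.

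Cd1d1 encodes the CD1d molecule that marginal zone B cells carry at high density. It was well above background in all lines, at -2.35 to 0.25 (median -1.49), against 4.30 to 4.77 in Atm knockout and 4.00 to 4.54 in Atm wild-type spleens. Line 5, which had the lowest Cr2, had the highest Cd1d1. The log2 difference was -5.85 ± 0.30 (SE) from knockout spleens (limma adjusted p = 2.17e-13), which is 57.8-fold, and -5.59 ± 0.29 from wild-type spleens (limma adjusted p = 1.82e-13). Mice carry a close copy of Cd1d1, Cd1d2, and whether the probe also reads it was not tested.

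Notch2, the receptor, fell in all lines by a smaller and more even amount. Its level was -0.05 to 1.01 in the lines (median 0.56), against 2.63 to 3.06 in Atm knockout and 2.64 to 2.94 in Atm wild-type spleens. The lines did not overlap the spleens. The log2 difference was -2.31 ± 0.13 (SE) from knockout spleens (limma adjusted p = 1.62e-12), a 4.96-fold lower signal, and -2.25 ± 0.13 from wild-type spleens (limma adjusted p = 9.56e-13). The second Notch2 probe gave -2.09 and -2.15 and another, the dimmest, gave -1.89 and -1.98. Dtx1, an E3 ligase of the Deltex family and a target of Notch, did not pass the test in either comparison. Its level was 4.87 to 6.28 in the lines (median 5.98), 5.20 to 6.02 in Atm knockout spleens (median 5.74) and 5.23 to 5.76 in Atm wild-type ones (median 5.69). Lines 1 to 9 thus straddled the spleens, with 4 above all 13, lines 6 and 8 below all 13, and 3 within their range. The log2 difference from knockout spleens was 0.08 (95% interval -0.31 to 0.47, limma adjusted p = 0.722) and from wild-type spleens 0.18 (95% interval -0.20 to 0.55, limma adjusted p = 0.393). Its direction rests on the scaling: 0.74 (limma adjusted p = 0.000898) with each array set to its median, where the median of all genes moved to 0.83, and -0.42 (limma adjusted p = 0.0359) with quantile normalisation.

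Cd9 was the only gene of the set higher in every line than in any spleen. The tetraspanin's level was 5.55 to 6.37 in the lines (median 5.95), against 3.00 to 3.65 in Atm knockout and 2.66 to 3.67 in Atm wild-type spleens. The lines spread little, with an SD of 0.26 against a median SD of 0.35 over the 10262 genes measured in all samples. The log2 difference was 2.47 ± 0.15 (SE) from knockout spleens (limma adjusted p = 4.04e-12), a 5.55-fold higher signal, and 2.74 ± 0.15 from wild-type spleens (limma adjusted p = 2.63e-13), a 6.69-fold higher one. Platelets carry CD9 too. The summed level of 16 other megakaryocyte and platelet markers, in multiples of the 75th percentile signal, was 0.440 to 3.29 in the lines, against 12.7 to 16.5 in Atm knockout and 14.6 to 20.5 in Atm wild-type spleens, and 7 of the 16, Pf4 among them, were well above background in no line.

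Cd93, a lectin-like receptor on transitional B cells and on endothelium, was near background in the lines. Its level was -8.35 to -4.16 there (median -6.62), with lines 3, 6 and 7 well above background. Knockout spleens had 2.27 to 2.99 and wild-type spleens 1.86 to 3.17. No line reached a spleen. The log2 difference fitted on the processed signal was -9.32 from knockout spleens (limma adjusted p = 4.46e-13) and -9.15 from wild-type spleens (limma adjusted p = 2.38e-13). With dim arrays raised to their lowest level well above background, Cd93 was at least 338-fold lower than in knockout spleens and 301-fold lower than in wild-type spleens. By a second, dimmer probe, well above background in 0 of 9 lines, Cd93 was at least 12.8-fold and 10.9-fold lower, and normexp correction gave -5.43 from knockout spleens. Cd24a, the other gene high on transitional cells, went the other way by a small amount. Its level was 5.06 to 6.48 in the lines (median 5.69), against 4.95 to 5.58 in Atm knockout and 4.68 to 5.29 in Atm wild-type spleens. Of the lines, 6 lay above all 13 spleens and 3 within their range. The log2 difference was 0.56 ± 0.18 (SE) from knockout spleens (limma adjusted p = 0.00805) and 0.85 ± 0.17 from wild-type spleens (limma adjusted p = 1.36e-04). Against knockout spleens the call was lost with quantile normalisation (0.06, limma adjusted p = 0.756) and with normexp correction (0.43, limma adjusted p = 0.0696). Red cell precursors and neutrophils also carry CD24, and whether the Cd24a probe reads copies of the gene was not tested.

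Cd55, which encodes decay accelerating factor, was 29.6-fold lower in the lines than in knockout spleens. Levels in lines 1 to 9 were -3.81, -0.68, -2.11, -1.94, -2.05, -1.77, -0.92, -3.86 and -1.33, all well above background. Knockout spleens had 2.30 to 3.22 and wild-type spleens 2.55 to 3.26. The groups did not overlap, and lines 1 and 8 stood lowest by a wide step from the other 7. The log2 difference was -4.89 ± 0.39 (SE) from knockout spleens (limma adjusted p = 2.77e-10) and -4.91 ± 0.37 from wild-type spleens (limma adjusted p = 9.96e-11).

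Cd38 differed more among the lines than between lines and spleens. Levels in lines 1 to 9 were 3.23, 3.37, 2.51, 3.43, 2.83, 1.68, 2.47, 1.45 and 1.81, against 2.34 to 2.80 in Atm knockout and 2.16 to 2.90 in Atm wild-type spleens. Lines 1, 2 and 4 lay above all 13 spleens, lines 6, 8 and 9 below all 13, and the other 3 within their range. The log2 difference was 0.03 from knockout spleens (95% interval -0.52 to 0.57, limma adjusted p = 0.934) and -0.05 from wild-type spleens (95% interval -0.57 to 0.47, limma adjusted p = 0.877), and a second probe gave -0.06 and -0.13. With each array set to its median Cd38 was higher by 0.68 (limma adjusted p = 0.017) and 0.60 (limma adjusted p = 0.0274). The 2 arrays of line 8 read Cd38 at 2.16 and, on the repeat, at 0.73.

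**Figure D2:**
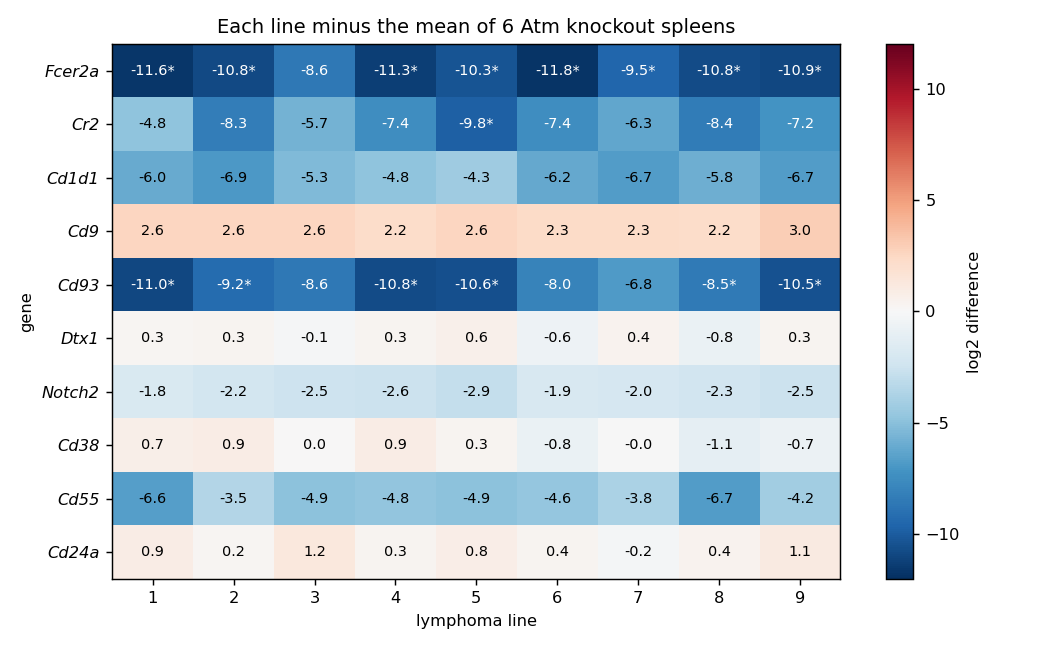
Log2 difference of each lymphoma line (columns, 1 to 9) from the mean of the 6 Atm knockout spleens for each of the 10 genes (rows), with an asterisk where the line was not well above background. Fcer2a and Cd93 are darkest, Cd9 is positive in every line, and Dtx1 and Cd38 are positive in some lines and negative in others.

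Among the lines, the SD of the level was 1.50 for Cr2, 1.46 for Cd93, 1.12 for Cd55, 1.04 for Fcer2a and 0.89 for Cd1d1, then 0.75 for Cd38, 0.48 for Dtx1, 0.45 for Cd24a, 0.35 for Notch2 and 0.26 for Cd9. Cr2, Cd55 and Cd1d1 were thus the most variable of the 8 genes above background in most lines, and for Fcer2a and Cd93, where most of these values lie in the background, the SD was 0.54 and 0.72 with dim arrays raised to their lowest level well above background. The repeat array of line 8 minus its first array was 1.62 for Cd93, 1.38 for Cr2, 1.09 for Cd1d1, 0.95 for Fcer2a and -1.43 for Cd38. Such steps between 2 arrays of 1 line are close to or above the SD among the lines, so a difference of that size between 2 single lines is not resolved. The step was -0.57 for Cd24a, -0.40 for Dtx1, 0.35 for Notch2, 0.31 for Cd55 and -0.16 for Cd9, and those of Dtx1, Cd55 and Cd9 were below the SD of the lines.

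The arrays lay on 6 slides, of which 1 held lines 7, 8 and 9 and no spleen. Within each of the other 5 slides the lines were lower than the knockout spleens for Fcer2a, Cr2, Cd1d1, Cd93, Notch2 and Cd55, and higher for Cd9 and Cd24a, and the same held against wild-type spleens. The within-slide log2 differences from knockout spleens ran from -11.62 to -8.57 for Fcer2a, from -8.80 to -4.92 for Cr2, from 2.06 to 2.72 for Cd9 and from 0.09 to 1.41 for Cd24a. For Dtx1 they were positive in 2 of 5 slides and for Cd38 in 3 of 5.

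**Figure D3:**
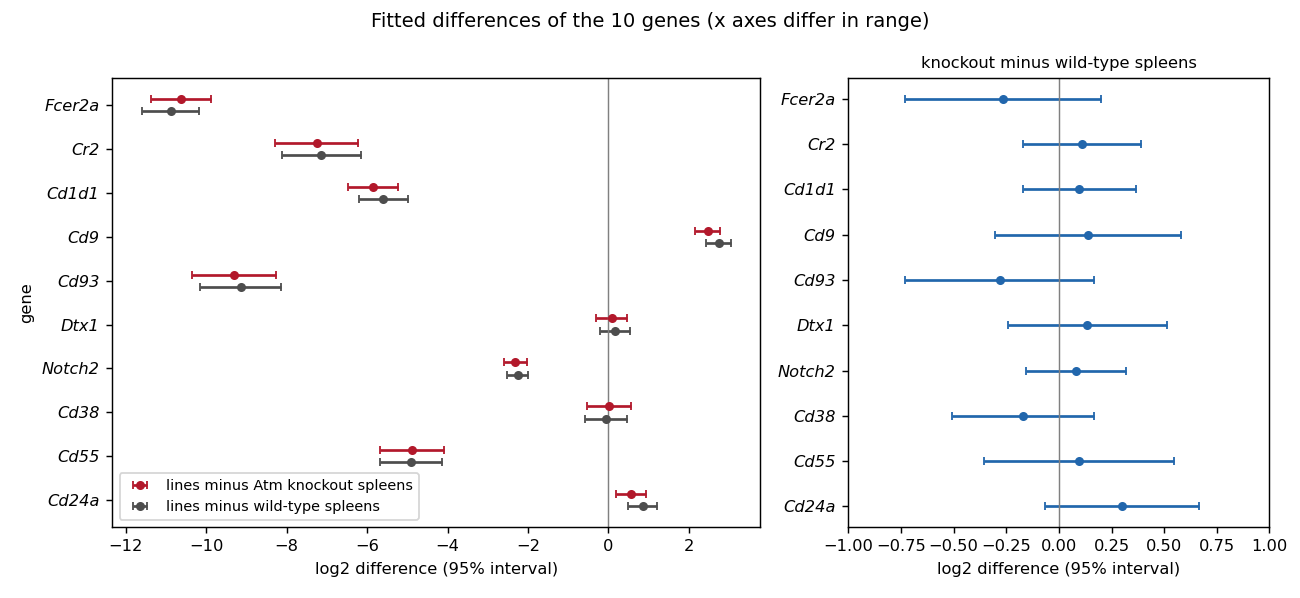
Fitted log2 differences with 95% intervals for the 10 genes (rows), lines minus Atm knockout spleens (red) and lines minus wild-type spleens (grey) on the left, Atm knockout minus wild-type spleens (blue) on the right, with a narrower x axis. On the left the intervals of Dtx1 and Cd38 hold 0 and the other 8 do not, and on the right all 10 hold 0.

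A spleen is a mixture of cells while a line is 1 kind of cell, and in bulk RNA fewer cells of a type and less RNA per cell cannot be told apart. The lines were also tumour cells grown in culture, while the spleens were tissue free of tumour. Tumour state, culture and cell makeup thus cannot be told apart in the comparisons of lines with spleens. The summed level of the 18 B cell markers was 874 to 1353 in the lines, against 720 to 1019 in Atm knockout and 752 to 1090 in Atm wild-type spleens, so it was not lower in the lines. Of these 18 markers 6 rose and 6 fell in the lines against knockout spleens (median difference 0.04, or 12 higher and 1 lower with each array set to its median). Follicular dendritic cells carry CD21 and CD23 as well. The summed level of 15 of their other markers was 9.88 to 22.6 in the lines, against 26.2 to 40.6 in Atm knockout and 25.4 to 41.1 in Atm wild-type spleens, and 4 of the 15 were well above background in no line. Erythroid markers summed to 4.86 to 32.8 in the lines, against 270 to 1192 in Atm knockout and 368 to 1021 in Atm wild-type spleens (16 markers, 5 above background in no line). Neutrophil markers summed to 0.0764 to 1.53 in the lines, against 242 to 798 in Atm knockout and 210 to 1022 in Atm wild-type spleens (15 markers, 6 above background in no line). For 17 macrophage and monocyte markers the sums were 25.1 to 108 in the lines, against 122 to 184 in Atm knockout and 119 to 207 in Atm wild-type spleens (6 above background in no line). A sum weighs bright genes most. Taken singly, 16 of these 17 were lower in the lines than in knockout spleens, with a median log2 difference of -7.11. The bright Ly6c2, with a mean level of 6.10 in the lines, was not called. Endothelial and stromal markers, of which Cd93 is 1 and was left out of the sum, reached 9.80 to 15.3 in the lines, against 16.6 to 23.0 in Atm knockout and 18.4 to 23.9 in Atm wild-type spleens (16 markers, 7 above background in no line). Of the 14 tested singly, 11 were lower and 1 higher than in knockout spleens, with a median log2 difference of -3.47. The bright Acta2, with a mean level of 3.48 in the lines, was not called. The sum of plasma cell markers ran the other way, at 307 to 639 in the lines, against 101 to 148 in Atm knockout and 60.7 to 85.2 in Atm wild-type spleens (11 markers, Cd38 left out, 0 above background in no line). Taken singly, 6 of the 11 were higher than in knockout spleens and 3 lower. The lower ones were Sdc1 at -3.38, Irf4 at -0.63 and Tnfrsf17, which was above background in 2 lines. T cell markers summed to 2.70 to 37.0 in the lines, against 14.9 to 21.9 in Atm knockout and 17.4 to 22.01 in Atm wild-type spleens (15 markers, 4 above background in no line). Of the 14 tested singly, 9 were lower and 3 higher than in knockout spleens, with a median log2 difference of -1.78. The higher ones were Cd3g at 7.34, Cd3d at 2.11 and Cd3e at 1.87. Thy1 and Cd8a, among the lower ones, were well above background in 0 of 9 lines. The part of any of these cells in the levels of the 10 genes was not tested.

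The other genes of the Notch pathway moved in both directions, as did all tested genes, of which 41.5% were higher and 28.9% lower in the lines than in knockout spleens. Of 30 tested besides Notch2, 5 were higher and 14 lower in the lines than in knockout spleens, with a median difference of -0.44, while with each array set to its median 13 were higher and 7 lower with a median of 0.22. Mib1, the ligase that arms Notch ligands, rose by 1.73, and the γ-secretase subunits Aph1a and Ncstn rose by 1.24 and 0.66. Lfng, a sugar transferase that tunes which ligands Notch hears, was well above background in 0 of 9 lines and at least 25.0-fold lower. Jag1, a ligand, was at least 4.92-fold lower, also with 0 of 9 lines above background, and the receptor Notch4 differed by -3.20. These bounds are by processed signal. With normexp correction the log2 differences were smaller, at -1.73 for Lfng and -0.32 for Jag1. Rbpj, picked after its values were seen because its motif was searched, differed by 0.27 (limma adjusted p = 0.0943).

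Of 14 tested Notch target genes, a list that holds Dtx1, Fcer2a and Cr2, 2 were higher and 9 lower in the lines, with a median of -2.23, or -1.58 with each array set to its median. Without these members 2 of 11 were higher and 7 lower, with a median of -2.21, beside 41.5% and 28.9% of all tested genes. Hes5, a transcriptional repressor, rose by 3.32 ± 0.37 (SE, limma adjusted p = 5.18e-08), and the Deltex gene Dtx3 by 1.47. Nrarp, a feedback inhibitor of Notch, was at least 20.4-fold lower, with 1 of 9 lines above background. Heyl, a relative of Hes5, was at least 3.20-fold lower by processed signal with 0 of 9 lines above background. With normexp correction the log2 difference of Heyl was only -0.015. Gpr183, which guides B cells within the follicle, differed by -4.14 ± 0.76 (SE, limma adjusted p = 5.45e-05). The targets thus moved in both directions while Dtx1 was not called.

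**Figure D4:**
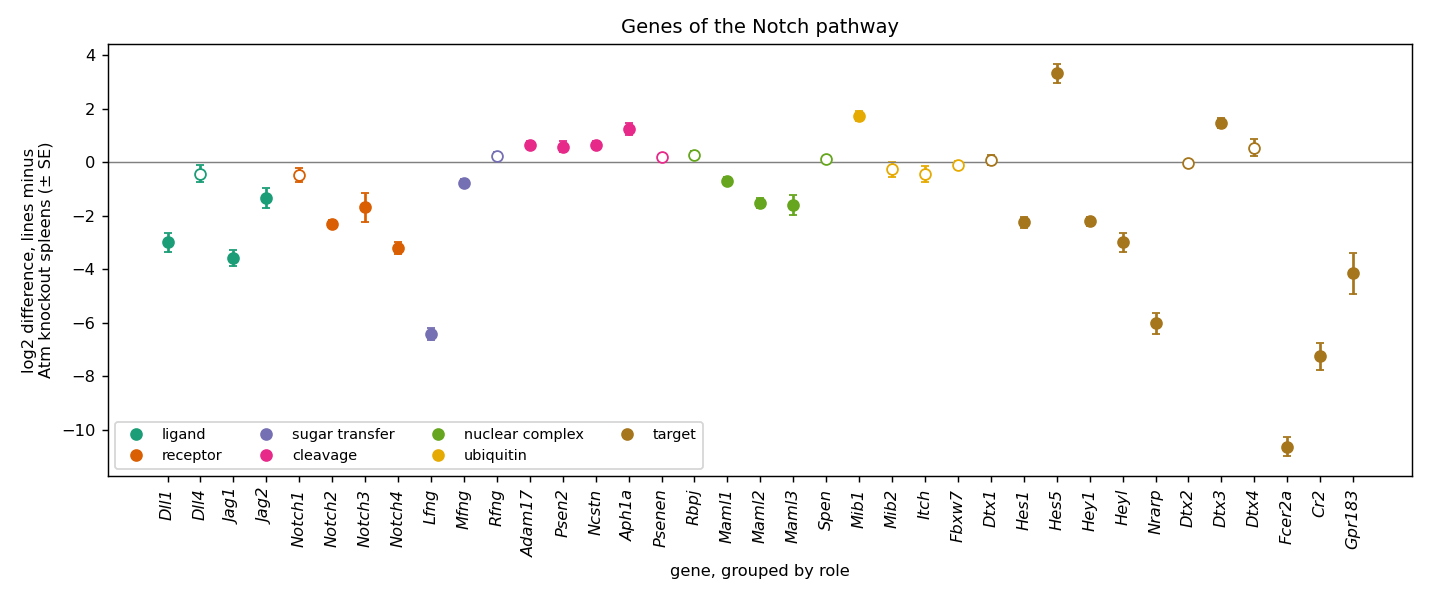
Log2 difference of lymphoma lines minus Atm knockout spleens (± SE) for tested genes of the Notch pathway and its targets, grouped and coloured by role, with filled points where the limma adjusted p was under 0.05. Fcer2a, Cr2, Lfng and Nrarp lie lowest, Hes5 and Mib1 highest, and Dtx1 is near 0.

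Groups of genes that act beside the other members were counted in the same fit. The counts from here on stand beside 41.5% of all tested genes higher and 28.9% lower in the lines than in knockout spleens. Of 19 tetraspanins and B cell coreceptor genes, Cr2 and Cd9 included, 6 were higher and 11 lower (median -0.55, or 0.11 with each array set to its median). Tspan5, Tspan31 and Igsf8, a partner of CD9, rose by 1.41, 0.93 and 0.59, while Cd63 differed by -5.74, Tspan33 by -6.35, and Tspan8 was at least 79.3-fold lower with 0 of 9 lines above background. Of 17 complement receptors and regulators, 3 of them members, 1 rose and 14 fell (median -2.60). C1qbp, a mitochondrial protein that can bind C1q, rose by 1.14, and the components C3 and C4b differed by -4.84 and -3.86. Of 14 genes of CD1d lipid presentation, 4 rose and 5 fell (median -0.03, or 0.62 with each array set to its median), with Psap, the precursor of the saposins that load lipids, at -2.04.

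Of 12 genes of the IL-4 and CD23 pathway 1 rose and 9 fell (median -1.48). The exception was Jak3, a kinase of the IL-4 receptor, at 0.94, while Il4i1, an enzyme induced by IL-4, differed by -2.31, Socs3, an inhibitor of cytokine signals, by -2.95, and the receptor chain Il13ra1 was at least 22.8-fold lower with 1 of 9 lines above background. With normexp correction Il13ra1 differed by -1.83. Of 11 NAD and ATP ectoenzymes and their partners, Cd38 included, 2 rose and 6 fell (median -3.61). Nt5e, which makes adenosine outside the cell, rose by 3.62, and Ada, which breaks it down, by 2.34. The ion channel Trpm2, opened by a product of NAD, was at least 134-fold lower with 2 of 9 lines above background, and the ATP receptor P2rx7 differed by -5.20. Of 23 anchored proteins and genes of anchor synthesis, Cd55 and Cd24a included, 8 rose and 6 fell (median 0.13, or 17 higher and 4 lower with each array set to its median). The synthesis genes Pigk, Pign and Pigf rose by 1.24, 1.14 and 1.08, Ly6d differed by -2.75 and Cd59a, another shield against complement, by -3.40.

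Among 33 other genes of mature B cell subsets, 4 were higher and 24 lower in the lines than in knockout spleens, with a median of -1.90. Zbtb32, a repressor of B cell responses, rose by 4.37, Mzb1, a chaperone of the antibody-making endoplasmic reticulum first described in marginal zone B cells, by 3.01 and the adhesion receptor Cd44 by 1.52. Ccr7, the chemokine receptor for T cell zones, differed by -9.79 with 7 of 9 lines above background, and Plac8 by -7.63. These limma fits used 13743 genes, the adjusted p of each gene given as rising or falling was under 0.05, and the lists were chosen with earlier results known.

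For the 7 genes above background in all 22 samples, the genes with the most similar pattern over the samples were sought by the root mean square difference after centring each gene. Nearest to Notch2 were Stk17b, Pim3 and Pik3r1 at 0.25, 0.27 and 0.28. Nearest to Cd9 were Tmem97, Zfp449 and Gapdh at 0.27 to 0.28, and nearest to Dtx1 were Grcc10, Strada and Rpl38 at 0.22 to 0.23. For Cd24a they were Uqcr11, Atp5g1 and Selenof at 0.22 to 0.24, and for Cd38 Sfxn3 and Iqsec1 were among them, both at 0.30. Cd1d1 had looser neighbours in Lgals3bp, Nrarp and Sema4a at 0.56 to 0.60, and Cd55 in Itga4, Slc37a1 and Ngfr at 0.65 to 0.66.

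Between Atm knockout and wild-type spleens, with sex as a term in the fit of 13 spleens, the 10 genes differed little. Since all knockout spleens are female, this fit sets them against the 3 female wild-type spleens. The 4 male ones add only to the estimate of the spread. The log2 differences ran from -0.28 for Cd93 to 0.30 for Cd24a, the limma adjusted p from 0.339 to 0.837, and 0 of the 10 had an unadjusted p under 0.05, where 20.4% of all genes did. For Cd24a levels were 4.95 to 5.58 in Atm knockout spleens and 4.68 to 5.29 in Atm wild-type ones, and the 95% interval of the difference was -0.07 to 0.66. For Fcer2a the interval was -0.73 to 0.20, for Cd93 -0.73 to 0.17, for Notch2 -0.16 to 0.32 and for Dtx1 -0.24 to 0.51. At these intervals a change of 2-fold in either direction lies outside the range for each of the 10. How small a change is resolved differs by gene. As a fold, the interval was 0.90 to 1.25 for Notch2 and 0.60 to 1.15 for Fcer2a, and changes within an interval are not resolved. Cd93 was 2.74 to 3.17 in the 3 female wild-type spleens and 1.86 to 2.68 in the 4 male ones, which did not overlap. Cd1d1 did not overlap either, at 4.29 to 4.54 in the female and 4.00 to 4.22 in the male ones. The share of all genes that separate the sexes so was not counted, and no test of sex was made. The knockout spleens, all female, had Cd93 at 2.27 to 2.99 and Cd1d1 at 4.30 to 4.77.

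The few related genes that differed between the genotypes were not members. In the same fit 3.82% of all tested genes were called, and 2 calls among 43 genes are close to that share. Of the 14 Notch targets 1 was called, Hes5, at 0.49 ± 0.30 in knockout spleens and 1.17 ± 0.17 in wild-type spleens (SD, n = 6 and 7). Its log2 difference, which the sex term sets against the female wild-type spleens only, was -0.73 (limma adjusted p = 0.0324). Of the 43 mature B subset genes 2 were called, both higher in knockout spleens: Ahr, a ligand-activated transcription factor, by 0.90 (limma adjusted p = 0.037) and S1pr3, a sphingosine phosphate receptor of marginal zone B cells, by 0.81 (limma adjusted p = 0.0256). Gla, a lysosomal galactosidase of the CD1d list, was higher by 1.11 (limma adjusted p = 0.00478), and Tspan3 differed by -0.51 (limma adjusted p = 0.00713). Of other cell types, 8 of 15 NK cell markers were lower and 4 of 12 plasma cell markers higher in knockout spleens. Most of these calls rest on the processing and on single spleens. With normexp correction none of the 5 named genes was called (limma adjusted p = 0.264 to 0.397), and 0 NK cell and 1 plasma cell marker were. Over 22 alternatives, 13 of them with 1 spleen left out, Hes5 was called in 13, Ahr in 11, S1pr3 in 17, Tspan3 in 20 and Gla in 21, each with its sign kept in all 22. Hes5, Ahr and S1pr3 lost their call without wild-type spleen 5, 6 or 7. These are the female wild-type spleens, against which the sex term sets the knockout spleens. In each of these cases 2 NK cell markers were called and 2 to 3 plasma cell markers. Hes5 and Ahr also lost it without knockout spleen 1, Hes5 without knockout spleen 4, and Ahr without knockout spleen 2 or wild-type spleen 3 or 4. In the 3-group fit 2 NK cell and 0 plasma cell markers were called, and of the 5 genes Gla was.

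Within the spleens, low Fcer2a and Cd55 were found where the B cell marker sum was lowest. Knockout spleens 2 and 5 and wild-type spleen 2 had the lowest sums of the 18 B cell markers, at 766, 720 and 752, against 878 to 1090 in the other 10. They also had the lowest Fcer2a, at 2.87, 3.20 and 3.07, and the lowest Cd55, at 2.58, 2.30 and 2.55. Other members did not all follow. Cd1d1 was at 4.77, 4.35 and 4.00 in these spleens, which include the highest and the lowest level of the 13. Cr2 was at 3.65, 3.52 and 3.47, and wild-type spleens 4 and 7 had 3.52 and 3.58. For Cd9 the same spleens lay at 3.57, 3.65 and 3.67, among the 4 highest of the 13. Their neutrophil marker sums were 643, 798 and 1022, against 210 to 683 in the other 10. The part of the cell makeup in these levels was not tested.

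**Figure D5:**
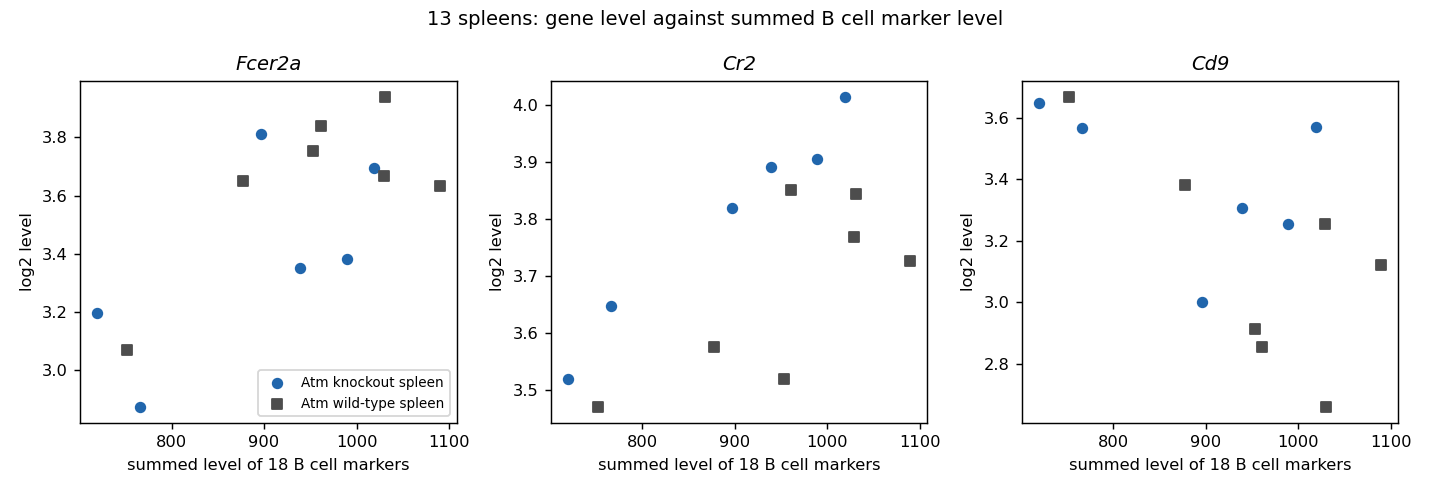
Log2 level of Fcer2a, Cr2 and Cd9 in 6 Atm knockout spleens (blue circles) and 7 Atm wild-type spleens (grey squares) against the summed level of 18 B cell markers in multiples of the 75th percentile signal. The 3 spleens with sums of 720 to 766 hold the lowest Fcer2a levels, Cr2 levels of 3.47 to 3.65 and Cd9 levels of 3.57 to 3.67.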

How the data were processed

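RNA of 22 mouse samples was read on 23 Agilent one-colour arrays. Per the file headers, the authors' scanner files give each spot's intensity after Agilent Feature Extraction 10.7.1.1 had taken off the local background. The authors also deposited log2 values for 41174 probes, scaled and centred to a median of 0 at each probe, as a check against the scanner files showed. These served as an alternative. From the scanner files, control spots and 1556 outlier spots were left out, spots of a probe averaged, each array divided by its 75th percentile and log2 taken. Symbols came from RefSeq accessions (26690 probes matched, 14484 did not). Genes with a probe well above background in at least 6 samples were tested, by their brightest probe, with limma 3.58.1 in R 4.3.3, adjusted by Benjamini-Hochberg at 0.05. The lines were compared with spleens in 1 fit of 3 groups, and the genotypes in 13 spleens with sex as a term. That term sets the knockout spleens, all female, against the female wild-type spleens. In lower bounds, dim arrays were raised to their lowest level well above background. Such bounds hold for the processed signal only, and normexp correction gave smaller differences where it is reported beside them. The files used hold no mean signal column, so normexp correction (offset 50) used the median signal. Named genes are the members, up to 3 called genes per list and direction with the largest difference, the called genes between genotypes and the 3 nearest genes of each member, of which some are not reported here. Members and lists were chosen with earlier results of these data known. Alternatives covered scaling, background, filter, probe, slide, sex, line 8 and each sample left out. Array number limits the precision.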

Additional observations from a re-analysis of the deposited data

Results flagged for a closer look

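Of 30 sets, each 1 gene in 1 group, 1 held a sample far from the others. Fcer2a in wild-type spleen 2 was at 3.07, below the nearest wild-type spleen at 3.63, a gap of 0.649 of the group's whole range. This spleen also had the lowest B cell marker sum of the wild type, 752, and the highest neutrophil marker sum of all spleens, 1022. Chance flags about 1 in 20 such sets.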

How the results depend on the processing

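No paired analysis was possible because the labels number no replicates across groups, and numbers given in accession order pair nothing. The 6 lower genes and Cd9 kept direction and call under each alternative that was fitted, in both comparisons of the lines. The number of the 10 genes called was 7 to 10 against knockout spleens and 8 to 10 against wild-type spleens over the other settings, stayed 8 without any 1 sample, and was 0 between the genotypes in each fit. The scaling moved the balance of all genes: in lines minus knockout spleens 58.9% of called genes were higher as reported, 77.6% with median scaling, 56.3% with quantile normalisation and 64.6% with normexp, with medians of 0.18, 0.83, 0.14 and 0.33.

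Dtx1 and Cd38, which were not called, changed sign. For Dtx1 the difference from knockout spleens was -0.42 with quantile normalisation and -0.024 with normexp, and from wild-type spleens -0.32 with quantile normalisation. For Cd38 the difference from knockout spleens was -0.25 with quantile normalisation, -0.024 with normexp, -0.0012 in the authors' deposited log2 values, -0.058 with the second probe and -0.052 with the repeat array of line 8. From wild-type spleens Cd38 was 0.60 with median scaling, 0.14 with normexp, 0.27 with slide as a fixed block, 0.074 as a random block, 0.032 with the first array of line 8 and 0.26 without the 3 lines on the slide of lines only, an alternative chosen after seeing the data. Leaving out 1 sample at a time, Dtx1 ran from -0.018 to 0.19 against knockout spleens and Cd38 from -0.085 to 0.16, and Cd38 against wild-type spleens from -0.16 to 0.088.

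Between genotypes, where nothing was called, signs changed for Fcer2a (0.018) and Cd38 (0.086) with normexp, for Notch2 (-0.14) and Cd38 (0.0032) with the second probe, and for Cd93 (0.17) and Cd55 (-0.029) without the sex term and in the 3-group fit. Dtx1 ran from -0.030 to 0.24 when 1 spleen was left out. The count of all genes called between genotypes, 525, was 3 with normexp, 257 with slide as a fixed block, 827 as a random block, 1451 without the sex term, 341 in females only and 245 in the 3-group fit. It ran from 123 to 781 when 1 spleen was left out, and was 316 without knockout spleen 1 and 169, 123 and 197 without wild-type spleens 5, 6 and 7. Wild-type spleens 5, 6 and 7 are the female ones, and with the sex term the knockout spleens are compared with these alone. The cause of the shifts in these counts was not tested. Signal over background limits Fcer2a and Cd93 in the lines, where a fold can only be given as a bound on the processed signal.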
